A study of Mus musculus with 2 samples.

Results

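The Cyp2c genes of mouse encode cytochrome P450 enzymes of the liver, and 10 of them were followed here in single nuclei of regenerating liver. They were taken by symbol from 32286 rows of a table of raw counts: Cyp2c29, Cyp2c37, Cyp2c38, Cyp2c39, Cyp2c40, Cyp2c44, Cyp2c50, Cyp2c54, Cyp2c69 and Cyp2c70. Cyp2c44 is listed in the table under its newer symbol, Cyp2c23. They are 10 of the 15 Cyp2c symbols in the table, and the other 5 (Cyp2c55, Cyp2c65, Cyp2c66, Cyp2c67 and Cyp2c68) are given beside them. The 10 were chosen by their CPM and shares of positive nuclei in these same libraries, so those values are a description and support nothing.

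The Cox10-/- liver and the wild-type liver gave 1 single-nucleus RNA library each. Both animals carried a floxed Cox10 allele, received AAV8-Cre or AAV8-GFP, and underwent 70% partial hepatectomy 4 weeks later. The labels do not state which virus each animal received, nor sex or age, and they give dissection both as 4 days after surgery, in the protocol, and as 4 weeks, among the sample characteristics. AAV8 infects mainly hepatocytes, so other cell types of the Cox10-/- liver may keep an intact allele. Cox10 encodes the enzyme that makes heme O for respiratory complex IV, and a floxed exon away from the 3' end leaves 3' tags of the gene in place. Cox10 itself stood at 43.9 CPM (183 UMIs) in hepatocyte-like nuclei of the Cox10-/- library and at 35.8 CPM (254 UMIs) in those of the wild-type library, so these tags do not check the deletion.

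Cytochrome P450 enzymes of this family sit in the membrane of the endoplasmic reticulum and oxidise drugs, steroids, retinoids and fatty acids with electrons from the reductase Por. Several mouse Cyp2c enzymes turn arachidonic acid into epoxides, and their genes lie next to each other as close copies, some induced through the nuclear receptor CAR (Nr1i3) and some differing between male and female liver. In the liver lobule, P450 genes are best known from the pericentral hepatocytes around the central vein, while hepatocytes around the portal vein carry out urea synthesis and gluconeogenesis.

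The 2 libraries held 14476400 UMIs in 5167 nuclei for the Cox10-/- liver and 17703804 UMIs in 5448 nuclei for the wild-type liver. A UMI, or unique molecular identifier, stands for a captured transcript molecule. After a limit of 10% mitochondrially encoded UMIs, 3126 Cox10-/- nuclei (60.5%) and 1540 wild-type nuclei (28.3%) were kept. Of these, 1172 and 1500 were hepatocyte-like by clusters named from markers that include no Cyp2c gene, with medians of 2648 UMIs per nucleus in the Cox10-/- library and 4408.5 in the wild-type library. The hepatocyte-like clusters stood above nuclei of other named types by a log2 excess of 0.68 to 1.63 over the hepatocyte markers, and the libraries filled different ones of them. Most Cox10-/- nuclei were in a cluster of 639 led by 4930404H11Rik, Scara5 and Cyp2b10, in a shallow cluster of 443 with a median of 1121 UMIs led by Saa1, Lrg1 and Cyp3a11, and in a cluster of 66 led by Meg3, Rian and Slc1a2. Wild-type nuclei were in clusters of 757 led by Grm8, 442 led by Sult2a8 and 292 led by Cyp2c38. The libraries were therefore also compared without the shallow cluster, and both values are given where it changed a count or moved a compared value by over 1.5 times. The libraries shared 7 cell barcodes. Transcripts of 4 Y-linked genes numbered 7797 UMIs in the Cox10-/- library and 9602 in the wild-type library, against 1 and 6 UMIs of Xist.

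Levels are given as CPM, the UMIs of a gene in each 1000000 UMIs summed over the hepatocyte-like nuclei of a library. With 1 library per group there is no test and no replicate check, and every range in parentheses is an exact 95% interval that covers counting error only. A gene with at least 20 UMIs over both sums was counted as higher or lower when it differed at least 2-fold and its whole interval lay beyond 1.5-fold. That minimum was met by 8 of the 10 Cyp2c genes, and by Cyp2c39 only through its Cox10-/- UMIs. In the Cox10-/- library 2 of the 8, Cyp2c39 and Cyp2c50, were higher than in wild type, beside 7.6% of all 11451 genes measured. Cyp2c38 alone was lower, beside 3.24% of all genes, and 5 lay within these limits. The median log2 ratio of the 8 was 0.19, against -0.03 over all genes measured, and since the choice of the genes used this contrast nothing is read from either figure.

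Of the 15 genes, 14 lie within 1.18 Mb of chromosome 19, from 39007019 to 40187333 on mm10, and Cyp2c44 lies apart, at 44005022 to 44029208 on the minus strand. Along the cluster the order is Cyp2c55, Cyp2c65, Cyp2c66, Cyp2c29, Cyp2c38, Cyp2c39, Cyp2c67, Cyp2c68, Cyp2c40, Cyp2c69, Cyp2c37, Cyp2c54, Cyp2c50 and Cyp2c70. Of the genes counted as higher or lower, 4 lay side by side and Cyp2c50 lay apart from them, between Cyp2c54 and Cyp2c70. Cyp2c38, lower in the Cox10-/- library, and Cyp2c39, higher there, are separated by 47.8 kb, and Cyp2c67 and Cyp2c68, both lower, follow next.

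**Figure D1:**
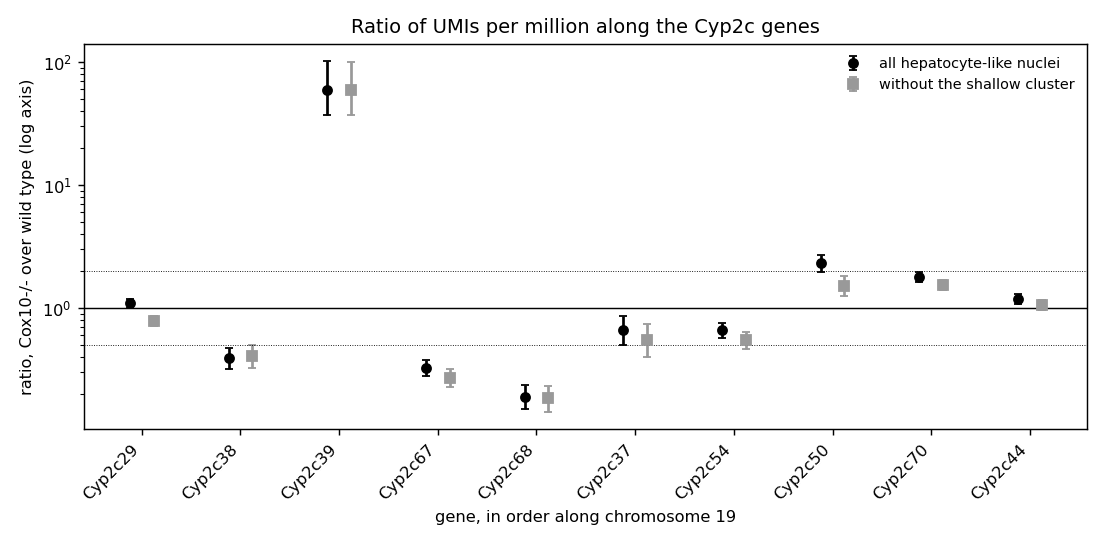
Ratio of levels in CPM, Cox10-/- over wild type, on a log axis for each Cyp2c gene with at least 20 UMIs, in order along chromosome 19. Circles use all hepatocyte-like nuclei and squares leave out the shallow cluster, bars are 95% counting intervals and dotted lines mark 2-fold. Cyp2c39 stands alone at 59.6, between Cyp2c38 at 0.391 and Cyp2c67 at 0.325.

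The summed level of the 10 genes differed less than its makeup. Together they gave 1004 CPM in the Cox10-/- library and 739 CPM in the wild-type library, a ratio of 1.36 (1.30 to 1.41), which was 1.14 without the shallow cluster. Over all 15 Cyp2c symbols the sums were 1078 and 1013 CPM, a ratio of 1.06 (1.03 to 1.11). Of the UMIs of the 10 genes, Cyp2c39 held 15.1% (14.0 to 16.2) in the Cox10-/- library and 0.343% (0.203 to 0.541) in the wild-type library. Cyp2c38 held 2.84% (2.36 to 3.39) in the Cox10-/- library and 9.87% (9.07 to 10.7) in wild type, and Cyp2c54 held 6.86% (6.11 to 7.67) against 14.1% (13.1 to 15.05). Cyp2c29, Cyp2c44 and Cyp2c70 held the most in both libraries.

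**Figure D2:**
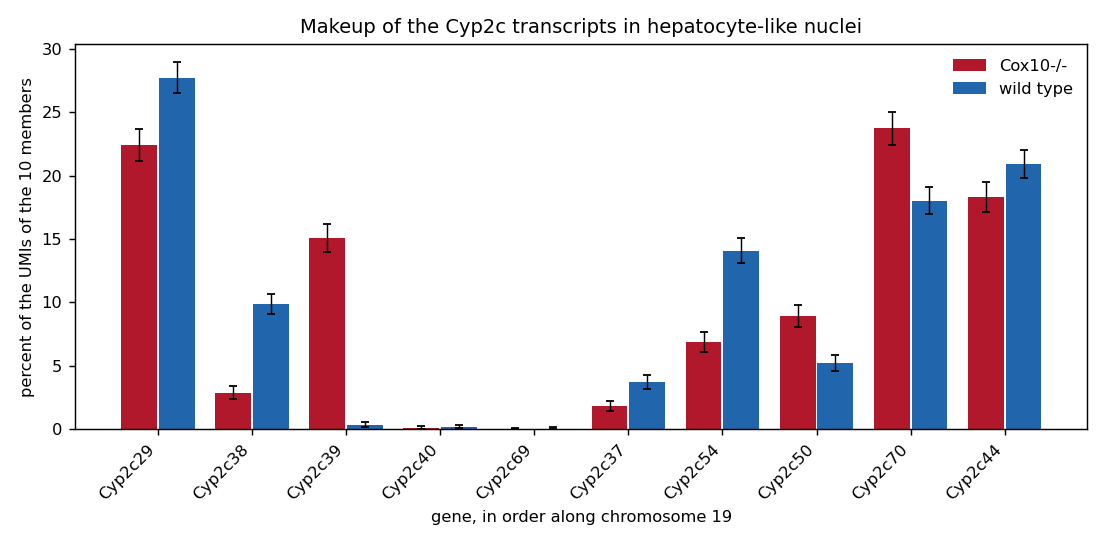
Percent of the UMIs of the 10 Cyp2c genes that each gene held in hepatocyte-like nuclei, with Cox10-/- bars left of wild-type bars and 95% counting intervals. The Cyp2c39 bar is 15.1% in Cox10-/- and 0.343% in wild type, and the order of the large bars differs between the libraries.

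Nuclear RNA holds unspliced transcripts, and whether intronic reads were counted is not given in the sources used here, so levels were compared between genes per 10 kb of gene span. On that scale Cyp2c44 came first in both libraries, with 76.0 CPM per 10 kb in Cox10-/- and 63.9 in wild type, followed by Cyp2c70 with 70.1 and 39.2. Cyp2c39 was at 26.2 CPM per 10 kb in the Cox10-/- library and at 0.439 in the wild-type library. Cyp2c40 and Cyp2c69 were the lowest in both.

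Cyp2c39 and Cyp2c38 are neighbouring near copies whose levels differed in opposite directions. In mouse, Cyp2c39 hydroxylates retinoic acid and both enzymes epoxidise arachidonic acid. Cyp2c39 (chromosome 19, 39510862 to 39568529, plus strand) stood at 151 CPM (139.6 to 163; 630 UMIs) in Cox10-/- hepatocyte-like nuclei and at 2.53 CPM (1.502 to 4.01; 18 UMIs) in wild-type nuclei. The ratio was 59.6 (37.4 to 101), and 59.2 (37.1 to 101) without the shallow cluster. At full depth, which differed between the libraries, a Cyp2c39 UMI was seen in 25.6% of Cox10-/- nuclei and 1.13% of wild-type nuclei. A nucleus held up to 22 Cyp2c39 UMIs in Cox10-/- and at most 2 in wild type. Cyp2c38 (39389556 to 39463075, minus strand) went the other way, with 28.5 CPM (23.7 to 34.2; 119 UMIs) in the Cox10-/- library and 72.9 CPM (66.8 to 79.5; 518 UMIs) in wild type. It was 2.55-fold lower (2.09 to 3.14), and 2.46-fold lower (1.99 to 3.05) without the shallow cluster. Their transcripts are 93.8% identical. None of the 411 windows of 90 bases in the last 500 bases of either transcript occurs in another Cyp2c transcript. Reads within these spliced 3' ends can thus be told apart among Cyp2c transcripts. Intronic reads, if they were counted, were not checked in this way.

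The start regions of this pair and of Cyp2c29 are printed because these near copies had such different levels. The sequences are RefSeq windows on GRCm38.p6, the mm10 assembly, from 250 bases before to 50 bases after the annotated start, 5′ to 3′ on the gene's strand. The windows are chr19:39510572-39510871 on the plus strand for Cyp2c39, chr19:39463026-39463325 on the minus strand for Cyp2c38 and chr19:39286835-39287134 on the plus strand for Cyp2c29. RefSeq lists another Cyp2c39 start farther upstream, at chr19:39347096-39347395, which is not printed. Capitals mark matches to TATAAA, to the nuclear receptor half-sites AGGTCA and AGTTCA, and to the other motifs named below.
Cyp2c39: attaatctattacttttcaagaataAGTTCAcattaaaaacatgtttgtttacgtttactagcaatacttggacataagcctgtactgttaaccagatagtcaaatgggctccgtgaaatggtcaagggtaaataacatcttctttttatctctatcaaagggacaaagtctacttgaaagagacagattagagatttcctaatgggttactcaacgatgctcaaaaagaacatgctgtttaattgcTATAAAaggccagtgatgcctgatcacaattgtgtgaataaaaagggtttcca
Cyp2c38: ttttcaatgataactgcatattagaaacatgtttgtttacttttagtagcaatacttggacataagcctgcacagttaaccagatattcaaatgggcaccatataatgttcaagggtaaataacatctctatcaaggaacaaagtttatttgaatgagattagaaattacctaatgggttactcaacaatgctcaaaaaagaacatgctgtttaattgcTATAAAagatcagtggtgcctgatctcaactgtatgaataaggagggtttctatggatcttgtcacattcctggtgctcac
Cyp2c29: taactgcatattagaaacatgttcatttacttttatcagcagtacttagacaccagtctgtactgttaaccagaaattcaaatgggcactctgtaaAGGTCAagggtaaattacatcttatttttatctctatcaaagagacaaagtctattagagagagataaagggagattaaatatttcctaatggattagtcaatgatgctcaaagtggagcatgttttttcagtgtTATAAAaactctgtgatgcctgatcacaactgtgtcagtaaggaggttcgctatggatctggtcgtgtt

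The printed Cyp2c39 and Cyp2c38 windows are 88.2% identical over 271 aligned bases, and Cyp2c29 is 80.5% identical to this Cyp2c39 window and 81.3% to Cyp2c38. All 3 hold a TATAAA, at position -3 from the annotated start in Cyp2c39, -31 in Cyp2c38 and -19 in Cyp2c29. Between Cyp2c38 and Cyp2c39 the marked letters differ only by an AGTTCA at position -225 in Cyp2c39.

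Motifs were searched on both strands in the windows of 13 Cyp2c genes with a RefSeq entry, 14 windows in all, since Cyp2c39 has a pair. TATAAA occurred in 10 of 14 (71.4%), against 13.6% of all 32851 RefSeq windows of the same length. The HNF4A motif CAAAGTCCA, for the hepatocyte receptor Hnf4a, was in 6 (42.9%), against 0.475%: Cyp2c65, Cyp2c67, Cyp2c68, Cyp2c40, Cyp2c69 and Cyp2c70. AGGTCA was in 3 (21.4%) against 16.3%, AGTTCA in 4 (28.6%) against 14.0%, the HNF1 motif GTTAAT in 3 against 7.10% and the C/EBP motif TTGCNNAA in 4 against 10.8%. The STAT5 motif TTCNNNGAA was in none of the 14, against 8.30% of all windows. The windows are copies of each other and do not count as independent, and a match is a string of letters, not a shown binding site.

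Cyp2c50, Cyp2c37 and Cyp2c54 form the next group of close copies, with transcripts 94.8% to 95.8% identical. In mouse, Cyp2c50 and Cyp2c54 epoxidise arachidonic acid, and Cyp2c37 is a target of CAR. Cyp2c50 (40089688 to 40113950, plus strand) had 89.5 CPM (80.6 to 99.0; 373 UMIs) in the Cox10-/- library and 38.4 CPM (34.0 to 43.3; 273 UMIs) in wild type, 2.33-fold higher (1.99 to 2.73). Without the shallow cluster it was 58.6 CPM against 38.4, a ratio of 1.52 (1.27 to 1.83), and no longer counted as higher. In that setting 1 of the 8 genes was higher, beside 5.16% of all genes, and 1 was lower, beside 3.06%. The shallow cluster itself had 301 CPM of Cyp2c50.

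Cyp2c37 (39992424 to 40012243, plus strand) had 18.0 CPM (14.2 to 22.6; 75 UMIs) in the Cox10-/- library and 27.3 CPM (23.6 to 31.4; 194 UMIs) in wild type, a ratio of 0.659 (0.498 to 0.864). Cyp2c54 (40037940 to 40073827, minus strand) had 68.9 CPM (61.1 to 77.3; 287 UMIs) in Cox10-/- and 104 CPM (96.7 to 112; 739 UMIs) in wild type, a ratio of 0.662 (0.575 to 0.759). Neither met the 2-fold limit, with or without the shallow cluster. Cyp2c54 was 1.82-fold lower (1.56 to 2.13) without it. A small part of the last 500 transcript bases is shared with another Cyp2c gene, with 8.27% of windows for Cyp2c54, 5.35% for Cyp2c37 and 3.65% for Cyp2c50.

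The windows of Cyp2c50 and Cyp2c37 are printed as those of near copies. The ratios of these genes over all hepatocyte-like nuclei lay on opposite sides of 1, but Cyp2c37 was not counted as different. Its log2 ratio, -0.60, turned to 0.11 after thinning nuclei to 1000 UMIs and to 0.01 for the mean over nuclei. The windows lie at chr19:40089429-40089728 and chr19:39992174-39992473, both on the plus strand, and are 89.5% identical over 295 aligned bases. Neither holds TATAAA, and the capitals mark the reverse complement of AGTTCA in Cyp2c50 and of TTGCNNAA in Cyp2c37.
Cyp2c50: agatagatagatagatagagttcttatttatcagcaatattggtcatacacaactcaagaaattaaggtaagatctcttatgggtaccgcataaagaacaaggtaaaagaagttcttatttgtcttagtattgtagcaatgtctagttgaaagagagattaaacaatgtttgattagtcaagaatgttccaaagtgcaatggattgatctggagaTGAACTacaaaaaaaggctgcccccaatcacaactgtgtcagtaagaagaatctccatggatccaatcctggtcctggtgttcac
Cyp2c37: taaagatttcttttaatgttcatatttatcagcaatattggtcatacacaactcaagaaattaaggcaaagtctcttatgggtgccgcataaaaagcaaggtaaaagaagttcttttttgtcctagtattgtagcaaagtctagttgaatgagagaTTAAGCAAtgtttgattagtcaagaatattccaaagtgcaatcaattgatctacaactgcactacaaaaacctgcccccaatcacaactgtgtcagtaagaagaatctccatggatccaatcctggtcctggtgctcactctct

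Cyp2c29, Cyp2c70 and Cyp2c44 are the abundant members. Cyp2c29, an arachidonic acid epoxygenase known to be induced through CAR, had 225 CPM (211 to 239.9; 938 UMIs) in the Cox10-/- library and 205 CPM (194 to 216; 1455 UMIs) in wild type, a ratio of 1.10 (1.01 to 1.19). Without the shallow cluster, which had 656 CPM, it was 162 CPM against 205 CPM, and the ratio turned to 0.792 (0.718 to 0.872). Cyp2c70 makes the muricholic acids, bile acids abundant in mouse. It had 238 CPM (224 to 254; 993 UMIs) in Cox10-/- and 133 CPM (125 to 142; 946 UMIs) in wild type, a ratio of 1.79 (1.63 to 1.96), or 1.55 (1.41 to 1.71) without the shallow cluster. Cyp2c44, an epoxygenase, had 184 CPM (171 to 197; 766 UMIs) in Cox10-/- and 154 CPM (145 to 164; 1097 UMIs) in wild type, a ratio of 1.19 (1.08 to 1.31), and 1.06 (0.960 to 1.18) without the shallow cluster.

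Cyp2c40 and Cyp2c69 were at the limit of detection. Cyp2c40, which is female-biased in mouse liver, had 4 UMIs in Cox10-/- and 8 in wild-type hepatocyte-like nuclei. Cyp2c69 had 0 UMIs in Cox10-/- nuclei, a count that allows up to 3, and 2 in wild-type nuclei. Both belong to a set of near-identical genes with Cyp2c67 and Cyp2c68, whose transcripts are 96.4% to 98.0% identical. Of the 3' windows, 49.9% are shared for Cyp2c40, 28.0% for Cyp2c68, 23.8% for Cyp2c69 and 23.1% for Cyp2c67, so the division of reads among these 4 is uncertain and no comparison is drawn for the first 2. The neighbours Cyp2c67 and Cyp2c68, which are not among the 10, were well above them. Cyp2c67 had 52.1 CPM (217 UMIs) in Cox10-/- and 160.4 CPM (1139 UMIs) in wild type, 3.08-fold lower (2.66 to 3.58). Cyp2c68 had 21.6 CPM (90 UMIs) in Cox10-/- and 113 CPM (803 UMIs) in wild type, 5.24-fold lower (4.21 to 6.59). Without the shallow cluster they were 3.69-fold and 5.41-fold lower. Cyp2c55, Cyp2c65 and Cyp2c66 had at most 3 UMIs each in the hepatocyte-like nuclei of either library.

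Most Cyp2c transcripts were also seen in nuclei of other liver cell types, which are not known to express these genes at hepatocyte levels. The comparison used all deposited nuclei of the endothelial-like, stellate-like, myeloid-like, lymphoid-like and cholangiocyte-like clusters, 3183 in the Cox10-/- library and 152 in wild type, with medians of 2341 and 2371.5 UMIs. Cyp2c29 was at 251 CPM in other Cox10-/- nuclei and 182 CPM in other wild-type nuclei, so hepatocyte-like nuclei held 0.896 and 1.12 times that level. Cyp2c50, at 0.827 and 0.793 times, and Cyp2c37, at 1.04 and 0.564 times, likewise did not stand above it. Leaving out the shallow cluster gave Cox10-/- factors of 0.646 for Cyp2c29, 0.541 for Cyp2c50 and 0.872 for Cyp2c37. In these comparisons the level of the 3 genes was not above that of other nuclei beyond counting error in either library. In all deposited Cox10-/- hepatocyte-like nuclei Cyp2c29 had 269 CPM (255 to 283), Cyp2c37 22.3 CPM (18.4 to 26.7) and Cyp2c50 109 CPM (100 to 118). The other Cox10-/- nuclei had 251 CPM (240 to 262), 17.3 CPM (14.6 to 20.4) and 108 CPM (101 to 116). Cyp2c29 and Cyp2c37 were then slightly above other nuclei, with intervals that overlapped. The part of free RNA in the differences between the libraries was not tested.

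Cyp2c39 and Cyp2c38 stood apart from that background in the Cox10-/- library. Cyp2c39 had 35.5 CPM (31.6 to 39.9) in other Cox10-/- nuclei, so hepatocyte-like nuclei were 4.25 times higher, and Cyp2c38 had 4.15 CPM (2.88 to 5.80), so they were 6.88 times higher. In wild type the factors were 0.549 for Cyp2c39, from 2 UMIs in other nuclei, and 1.76 for Cyp2c38. In the wild-type library Cyp2c54 (2.65) and Cyp2c44 (2.09) were more than 2 times above other nuclei. In the Cox10-/- library they were at 1.21 and 1.53. Without the shallow cluster, Cox10-/- Cyp2c54 was at 57.2 CPM (49.7 to 65.5), against 56.9 CPM (51.9 to 62.3) in other nuclei. Cyp2c67 was then at 43.4 CPM (36.9 to 50.8) against 43.2 CPM (38.8 to 48.0), so neither stood above other Cox10-/- nuclei. Cyp2c68 did, at 20.9 CPM (16.5 to 26.2) against 12.5 CPM (10.2 to 15.1). With the cluster Cyp2c67 was at 1.20 times and Cyp2c68 at 1.73, and in wild type both were at 1.69. Cyp2c70 was at 1.46 times in Cox10-/- and 1.70 in wild type. Across the 5 other cell types of the Cox10-/- library, Cyp2c39 ranged from 23.7 CPM in lymphoid-like nuclei to 40.1 CPM in endothelial-like nuclei, against 149 CPM in all deposited hepatocyte-like nuclei. Cyp2c38 ranged from 2.84 CPM in endothelial-like nuclei to 6.78 CPM in lymphoid-like nuclei, against 25.5 CPM. Cyp2c67 ranged from 32.6 CPM in stellate-like to 76.9 CPM in cholangiocyte-like nuclei, against 60.2 CPM. Cyp2c68 ranged from 6.49 CPM in myeloid-like to 31.7 CPM in cholangiocyte-like nuclei, against 22.1 CPM.

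**Figure D3:**
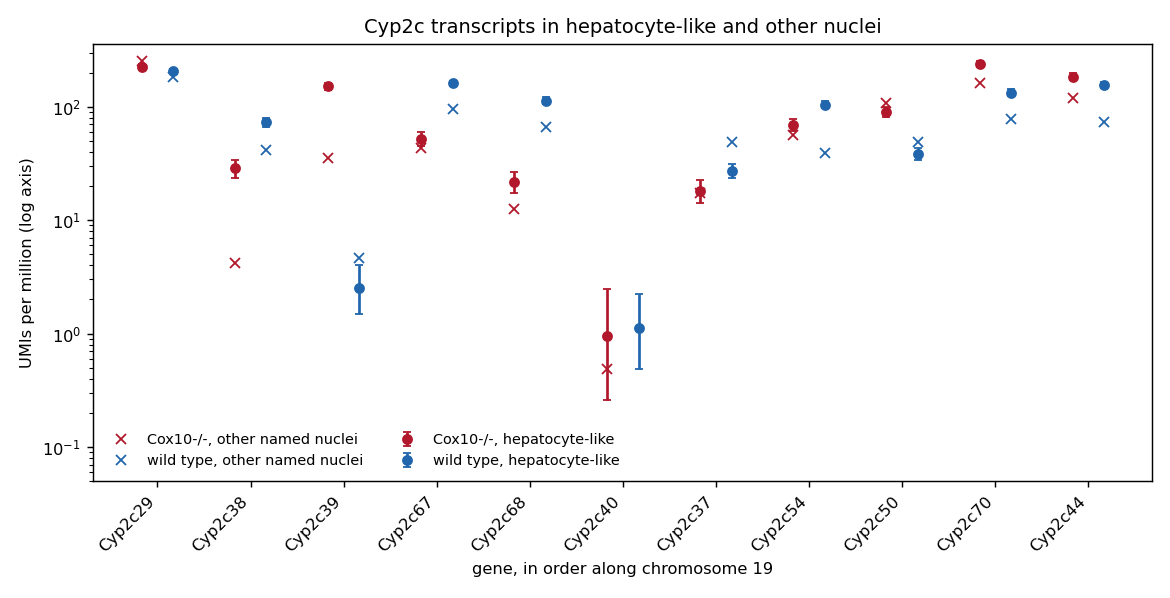
CPM of each Cyp2c gene on a log axis, Cox10-/- left of wild type, with circles and 95% counting intervals for hepatocyte-like nuclei and crosses for the other named nuclei of the same library. Symbols with fewer than 10 UMIs over both libraries are left out, and a cross at 0 cannot be drawn. The cross lies far below the circle for Cyp2c38 and Cyp2c39 in Cox10-/-, and near it for Cyp2c29 and Cyp2c50.

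Shares of positive nuclei were compared after thinning each nucleus to 1000 UMIs, which left 1128 Cox10-/- and 1499 wild-type hepatocyte-like nuclei and left out 44 and 1 shallower ones. Cyp2c39 was then detected in 12.8% (10.9 to 14.9) of Cox10-/- and 0.267% (0.0728 to 0.682) of wild-type hepatocyte-like nuclei, against 3.47% of 3167 other Cox10-/- nuclei and 0 of 151 other wild-type nuclei, a 0 that allows up to 1.99%. Cyp2c38 was detected in 1.86% (1.16 to 2.83) of Cox10-/- and 5.40% (4.31 to 6.67) of wild-type nuclei, against 0.600% and 3.97% of other nuclei. The wild-type share of Cyp2c38 in other nuclei rests on 6 nuclei, and its interval (1.47 to 8.45) includes the hepatocyte share. Cyp2c29 was detected in 27.0% of Cox10-/- and 17.1% of wild-type nuclei, close to the 24.0% and 15.2% of other nuclei of the same library. Without the shallow cluster the Cox10-/- share of Cyp2c29 was 17.7% (15.03 to 20.7), next to the wild-type 17.1% (15.3 to 19.1). Without thinning, and with the cluster, the shares were 52.6% and 48.6%. Cyp2c50 was detected in 14.0% of Cox10-/- and 3.67% of wild-type nuclei, against 10.8% and 3.97% of other nuclei. Leaving out the shallow cluster put its Cox10-/- share at 7.57% (5.75 to 9.73), below the share in other Cox10-/- nuclei. The shares of Cyp2c39 and Cyp2c38 in Cox10-/- nuclei were 11.6% and 2.06% without the cluster. At least 2 of the 10 genes were seen in 33.3% of Cox10-/- and 14.7% of wild-type nuclei, against 17.1% and 7.95% of other nuclei, and in 19.5% of Cox10-/- nuclei without the shallow cluster.

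To place the genes along the lobule, each hepatocyte-like nucleus was scored by 20 pericentral genes (among them Glul, Oat and Cyp2e1) minus 22 periportal genes (among them Hal, Cyp2f2 and Pck1), none of them a Cyp2c gene. Nuclei of each library were then cut into 3 classes of equal size. The classes are ranges of a score, and 14.1% of Cox10-/- and 16.1% of wild-type nuclei lay within 0.1 SD of a cut. In wild type, the pericentral class had at least 2-fold higher levels of 4 of the 7 Cyp2c genes with enough UMIs, beside 1.01% of all genes, and none in the periportal class, beside 0.81%. Cyp2c38 had 184 CPM (167 to 202; 435 UMIs) in pericentral and 5.07 CPM (2.62 to 8.86; 12 UMIs) in periportal wild-type nuclei, a ratio of 36.2 (20.5 to 70.6). The ratio was 7.99 (4.81 to 14.1) for Cyp2c37, 4.40 (3.77 to 5.16) for Cyp2c29 and 2.63 (2.16 to 3.21) for Cyp2c54. Cyp2c50 (1.44, 1.06 to 1.96), Cyp2c70 (1.20, 1.02 to 1.40) and Cyp2c44 (0.980, 0.844 to 1.14) were within the limits. Cyp2c67 and Cyp2c68 were at 1.44 and 0.853.

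In the Cox10-/- library the shallow cluster supplied 231 of the 391 nuclei of the pericentral class, and the median depth there was 1270 UMIs, against 4457 in the periportal class. With it, 5 of 8 Cyp2c genes were at least 2-fold higher in the pericentral class, beside 2.27% of all genes. Without it, 3 were, Cyp2c39, Cyp2c38 and Cyp2c29, beside 1.7% of all genes, at median depths of 3694 UMIs in the pericentral and 5240 in the periportal class. None was periportal in either setting, beside 1.11% and 1.02%. Without the shallow cluster Cyp2c39 had 368 CPM (333 to 405; 407 UMIs) in pericentral, 96.3 CPM in middle and 20.3 CPM (13.5 to 29.4; 28 UMIs) in periportal nuclei, a ratio of 18.1 (12.3 to 27.5). With the cluster the ratio was 11.02 (8.43 to 14.6). Cyp2c38 had 76.8 CPM (85 UMIs) in pericentral and 2.91 CPM (4 UMIs) in periportal nuclei, a ratio of 26.4 (9.95 to 99.2), or 12.4 (6.52 to 25.9) with the cluster. The ratio for Cyp2c29 was 2.19 (1.78 to 2.70), or 2.76 with the cluster.

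The other genes were nearer to even in Cox10-/- nuclei. Without the shallow cluster the pericentral over periportal ratio was 1.98 (1.41 to 2.81) for Cyp2c54, 1.23 (1.01 to 1.501) for Cyp2c44, 1.18 (0.596 to 2.33) for Cyp2c37, 1.15 (0.830 to 1.60) for Cyp2c50 and 0.874 (0.728 to 1.05) for Cyp2c70. With the cluster, Cyp2c50 (2.22) and Cyp2c54 (2.13) passed the 2-fold limit. For Cyp2c37 the interval in Cox10-/- nuclei lay below the wild-type interval of 4.81 to 14.1, with (2.18, 1.25 to 3.84) and without the shallow cluster. Without it, Cox10-/- hepatocyte-like nuclei had 15.1 CPM of Cyp2c37, 58.6 CPM of Cyp2c50 and 57.2 CPM of Cyp2c54. Other Cox10-/- nuclei had 17.3, 108 and 56.9 CPM, so these genes did not stand above them. The part of free RNA in these zone ratios was not tested.

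**Figure D4:**
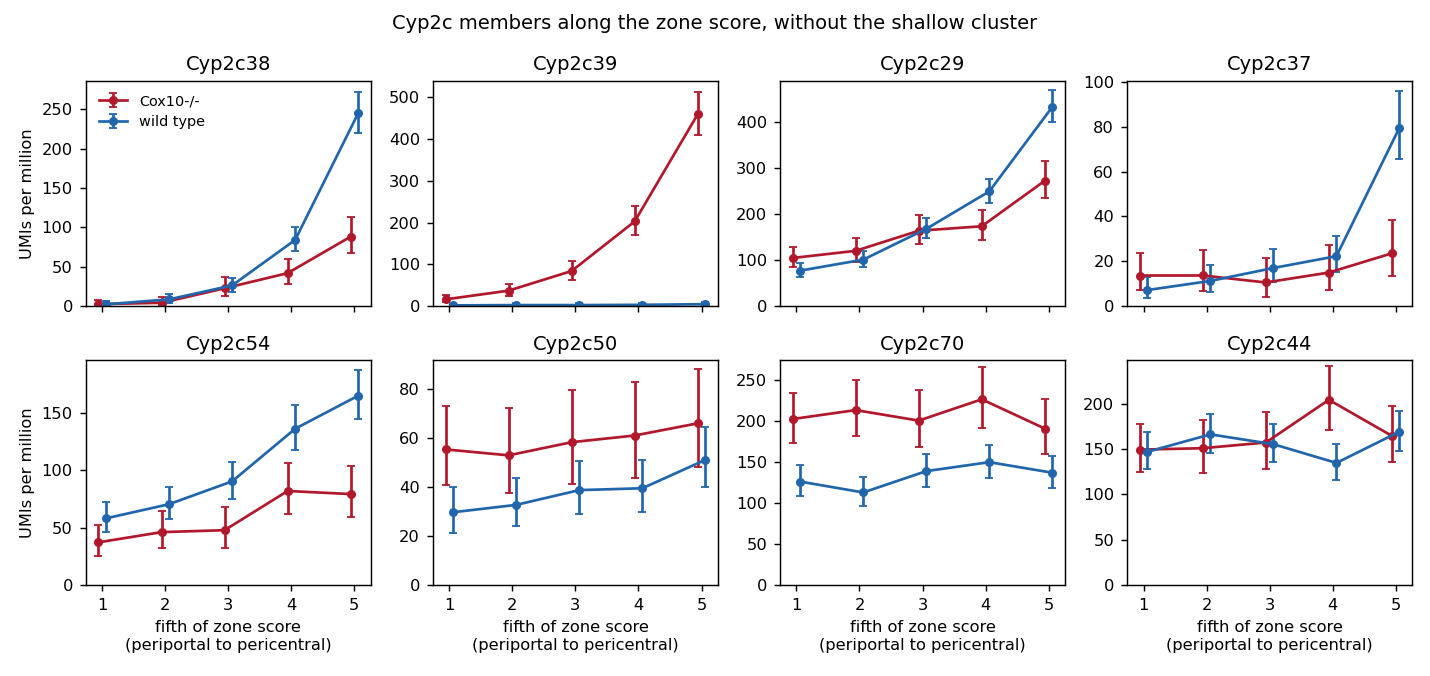
CPM of 8 Cyp2c genes in 5 classes of the zone score within each library, periportal on the left and pericentral on the right, with 95% counting intervals and without the shallow cluster. Cyp2c38 climbs toward the pericentral end in both libraries and Cyp2c39 in Cox10-/-, while Cyp2c70 and Cyp2c44 show no such gradient.

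A finer cut into 5 classes, chosen after the values were seen, showed the shape of these gradients without the shallow cluster. From the periportal to the pericentral end, Cyp2c39 in Cox10-/- nuclei had 15.8, 36.7, 83.9, 203 and 459.9 CPM. In wild-type nuclei it had 1.42, 2.10, 2.12, 2.78 and 4.26 CPM. Cyp2c39 was thus graded in the Cox10-/- library, and near the floor throughout the wild-type library. Cyp2c38 had 2.26, 4.08, 22.5, 41.8 and 88.2 CPM in Cox10-/- and 2.13, 8.38, 26.1, 84.1 and 245 CPM in wild type. Cyp2c37 had 13.6, 13.6, 10.5, 14.9 and 23.5 CPM in Cox10-/- and 7.10, 11.2, 16.95, 22.2 and 79.6 CPM in wild type. The counting intervals of its libraries separated at the pericentral end only. Cyp2b10, the classical CAR target gene, ran against Cyp2c39, with 126, 68.0, 52.4, 44.7 and 36.7 CPM in Cox10-/- nuclei.

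Within each zone class, with and without the shallow cluster, the intervals of Cyp2c39 and Cyp2c70 lay above 1 and those of Cyp2c67 and Cyp2c68 below 1. Without the cluster, Cyp2c39 was 87.0-fold (46.8 to 183) higher in pericentral, 57.0-fold (21.7 to 213) in middle and 12.0-fold (4.21 to 47.2) in periportal Cox10-/- nuclei than in wild-type nuclei of the class. With it these ratios were 86.3, 94.4 and 19.6. The periportal Cox10-/- level of Cyp2c39 was 20.3 CPM (13.5 to 29.4) without the cluster and 33.1 CPM (25.5 to 42.3) with it. Neither was above the 35.5 CPM (31.6 to 39.9) of Cyp2c39 in other Cox10-/- nuclei. Cyp2c68 was 3.95-fold, 4.71-fold and 8.79-fold lower in the pericentral, middle and periportal classes without the cluster, and Cyp2c67 was 3.12-fold, 4.40-fold and 3.74-fold lower. With the cluster, Cyp2c67 was 2.92-fold lower in the middle class. Without it, periportal Cox10-/- nuclei had 13.8 CPM (8.31 to 21.5) of Cyp2c68 and 35.6 CPM (26.3 to 47.0) of Cyp2c67. Cyp2c67 was at 35.6 CPM in the middle class as well. Other Cox10-/- nuclei had 12.5 CPM of Cyp2c68 and 43.2 CPM of Cyp2c67, so these levels were not above other nuclei beyond counting error. Cyp2c38 was 2.39-fold lower (1.89 to 3.06) in pericentral Cox10-/- nuclei without the cluster and 2.61-fold lower (2.03 to 3.40) with it. In the middle class its ratio was 0.550 (0.313 to 0.922) without the cluster and 0.992 (0.645 to 1.502) with it, so no difference between the libraries held there in both settings.

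The other members depended more on the shallow cluster within the classes. Cyp2c37 was 3.35-fold lower (2.06 to 5.73) in pericentral Cox10-/- nuclei without the cluster and 1.96-fold lower (1.31 to 3.02) with it. Its periportal ratio was 2.02 (1.01 to 4.11) without the cluster and 1.87 (0.977 to 3.67) with it. The pericentral ratio of Cyp2c29 was 0.635 (0.551 to 0.730) without the cluster and 0.995 (0.879 to 1.12) with it, and its periportal ratio was 1.28 (1.02 to 1.59) and 1.59 (1.31 to 1.92). In the middle class Cyp2c29 was at 0.982 (0.819 to 1.17) without the cluster and 1.56 (1.33 to 1.81) with it. Cyp2c50 had ratios of 1.48, 1.30 and 1.86 in the pericentral, middle and periportal classes without the cluster, where the middle interval (0.917 to 1.83) included 1, and of 2.87, 2.72 and 1.86 with it. Cyp2c54 had ratios of 0.529, 0.534 and 0.700 without the cluster, all with intervals below 1, and of 0.616, 0.864 and 0.760 with it, where the middle (0.678 to 1.10) and periportal (0.575 to 1.0003) intervals included 1.

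Clusters were built on all genes, so their levels are a description. Cyp2c39 had 597 CPM in the cluster of 66 Cox10-/- nuclei led by Meg3, Rian and Slc1a2, 80.3% of them pericentral, where Cyp2c39 itself was among the leading genes. It had 100.1 CPM in the cluster of 639 and 158 CPM in the shallow cluster. Cyp2c38 had 159 CPM, 14.6 CPM and 20.7 CPM in the same clusters. In wild type Cyp2c38 had 299 CPM in the cluster it led, 81.2% of whose nuclei were pericentral, against 24.9 and 2.11 CPM in the other 2. Cyp2c44 hardly varied among the wild-type clusters, at 153 to 156 CPM.

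Whether Cyp2c39 and Cyp2b10 marked the same Cox10-/- nuclei could not be resolved at this depth. In nuclei thinned to 1000 UMIs without the shallow cluster, Cyp2c39 had 85.2 CPM (4 UMIs) in 47 nuclei with a Cyp2b10 UMI and 149 CPM (101 UMIs) in 680 nuclei without, a ratio of 0.574 (0.153 to 1.51). In the 84 nuclei with a Cyp2c39 UMI, Cyp2c29 had 226 CPM, against 189.7 CPM in 643 nuclei without, a ratio of 1.19 (0.695 to 1.95). The corresponding ratios were 1.58 (0.937 to 2.54) for Cyp2c44 and 1.82 (0.772 to 3.82) for Cyp2c54. None of these intervals excludes 1, and detection was too sparse to show that the levels are alike.

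The genes most like each member were taken over 6 sums, the 3 zone classes of both libraries with the shallow cluster, by Pearson's r of log2 (CPM + 1). They are a description over few points that share libraries and depth. Cyp2c39 was most like Ttc36, Trf (transferrin) and H2-Q7, with r of 0.998 to 0.999. Of these, Ttc36 had 239 CPM in Cox10-/- and 119 CPM in wild type, a ratio of 2.01, so the likeness is in shape and not in size. Cyp2c29 was most like Cyp27a1, itself in the pericentral list, Cdh2 and Diaph2. Cyp2c38 was most like Prodh, Mcc and Aldh1a1, and Cyp2c54 like Esrrg, Slco1b2 and Cyp7a1, which starts bile acid synthesis from cholesterol.

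Other P450 genes and genes known to act on Cyp2c genes were counted in the same way, by lists chosen with earlier results known. The counts stand beside 7.6% of all 11451 genes measured that were higher and 3.24% that were lower. Without the shallow cluster these shares were 5.16% and 3.06%. Of 17 other Cyp2 genes measured, 4 were higher and 0 lower in the Cox10-/- library (median log2 ratio 0.49): Cyp2b10, Cyp2a22, Cyp2a5 and Cyp2b9. Cyp2b10 had 65.5 CPM (273 UMIs) against 0.141 CPM (1 UMI), a ratio of 465 (82.8 to 18440). Of 4 Cyp3a genes, 2 were higher and 0 lower (median 1.17), with Cyp3a11 at 823 CPM in Cox10-/- and 44.1 CPM in wild type. Of 7 electron donors, heme supply genes and epoxide hydrolases, only Ephx1 was counted, as higher (2.24-fold, 1.82 to 2.77; median of the 7 -0.01), and without the shallow cluster it was not (1.75-fold, 1.39 to 2.20). The reductase Por was at 1237 CPM in Cox10-/- and 1011 CPM in wild type. The counts of the other Cyp2 and the Cyp3a genes without that cluster were also 4 and 2, with medians of 0.11 and 1.20.

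Of 19 receptors and factors measured, Cebpb was higher (353 CPM in Cox10-/-, 149.5 CPM in wild type) and Onecut1 lower (35.5 CPM in Cox10-/-, 232 CPM in wild type), with a median of -0.19. The receptors CAR (Nr1i3) and PXR (Nr1i2) were at 184 and 357 CPM in Cox10-/- and at 181 and 281 CPM in wild type. Nr1i3 was pericentral in both libraries, with ratios of 2.77 (2.28 to 3.39) in Cox10-/- without the shallow cluster and 2.38 (2.05 to 2.76) in wild type. Of 11 male-biased liver genes 1, Mup20, was higher and 6 lower (median -1.83), among them Hsd3b5 (3 UMIs in Cox10-/-, 215 in wild type), Elovl3 (2 and 43 UMIs) and Slco1a1 (149 CPM and 641 CPM). Of 3 female-biased genes measured, Cyp2b9 was higher (18.95 CPM in Cox10-/-, 5.35 CPM in wild type) and Cyp17a1 lower (4 and 167 UMIs). Stat5a (0.345, 0.185 to 0.601) and the male-biased Cyp4a12a (0.404, 0.337 to 0.482) were counted as lower as well without the shallow cluster. Over all 11451 genes measured 870 (7.6%) were higher and 371 (3.24%) lower.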

How the data were processed

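The authors deposited raw counts (UMIs of each gene in each nucleus) that they had not normalized. The submitters' processing notes name Cell Ranger 7.0 and mm10. Deposited nuclei ran from 601 to 3999 genes with under 20% mitochondrially encoded UMIs. Use of intronic reads is not given in the sources used here. The Cyp2c genes and all lists were chosen with earlier results of these data known.

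Nuclei with 500 or more UMIs, 300 or more genes and up to 10% mitochondrial UMIs were clustered with scanpy 1.11.5 (2000 variable genes, 30 principal components, 15 neighbours, Leiden resolution 1.0, no integration). Scrublet marked 10 Cox10-/- and 2 wild-type nuclei (0.194% and 0.037%), a share too low for a working doublet call, and only these were removed. Clusters were named first for other cell types (marker excess of at least 2 on the log2 scale, a leading marker 8-fold up, 3 detected markers), then as hepatocyte-like with no other class above 0.25. That last limit was set after the clusters were seen.

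UMIs were summed per library, zone class or cluster. Intervals are exact, Poisson for a level, conditional binomial for a ratio and Clopper-Pearson for a share. The intervals cover counting error only and hold no spread between animals. Each share of positive nuclei was taken after thinning nuclei to 1000 UMIs, except those given at full depth or without thinning. Log2 ratios used a prior of 0.5 UMI. Named genes were the 10 members, the other Cyp2c symbols, up to 4 list members with the largest ratios and 3 genes most like each member. Por, Nr1i3, Nr1i2, Stat5a, Cyp4a12a and the zoning of Cyp2b10 were given outside this rule, chosen after their values were seen. Coordinates and transcripts came from GENCODE vM21 and start regions from RefSeq. The call was tested on simulated data. Alternatives included edgeR 4.0.16 (TMM) and DESeq2 1.42.0 size factors, used for scaling only.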

Additional observations from a re-analysis of the deposited data

How the results depend on the processing

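Over the alternatives tried (other nucleus filters, clusterings, scalings, gene minimums and zone cuts), 1 Cyp2c gene was lower in the Cox10-/- library in each, and 2 were higher in each except 3 settings: 1 without the shallow cluster, and 3 after thinning and for the mean over nuclei. The summed ratio of the 10 genes was 1.36, and it was 1.54 with all deposited nuclei, 1.14 without the shallow cluster, 1.82 after thinning and 1.86 for the mean over nuclei. The count of pericentral genes in Cox10-/- nuclei was 5, beside 2.27% of all genes. It was 3 without the shallow cluster, beside 1.7% of all genes, and 3 after thinning. The count was also 3 with the central vein Wnt list in the zone score, and with 2 zone classes in place of 3. In wild type it was 4 in each setting but 1, where it was 3. Of all genes, 7.6% were higher and 3.24% lower in the Cox10-/- library, and 5.16% and 3.06% without the shallow cluster. For the other settings no share over all genes is given here, so their counts are not read as results about the Cyp2c genes. Of 394 recomputed log2 ratios of single genes 51 moved, and 8 took the other sign, none of them of a counted difference. The log2 ratio of Cyp2c39 ranged from 5.69 to 6.55 and that of Cyp2c38 from -1.55 to -1.15, while Cyp2c29 ranged from -0.34 to 0.85, Cyp2c37 from -0.85 to 0.11, Cyp2c54 from -0.86 to 0.14 and Cyp2c50 from 0.61 to 2.10. The causes were not tested. No paired analysis was possible because each group has 1 library. At 18 wild-type UMIs the Cyp2c39 ratio is known only within its counting interval, and its zoning in wild type could not be read.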
